A study of Mus musculus with 42 samples.

Results

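The comparison described here sets 9 tumors of mice that received blocking antibodies against both PD-1 and GM-CSF beside 5 tumors of mice that received isotype control antibodies. The tumors were chosen by their sample labels alone, and these 14 are part of 42 tumors profiled by poly(A) RNA-seq. All mice were female F1 hybrids of CC075/UncJ and C57BL/6J (CC75×B6), aged 8 to 12 weeks, which carried MC38 tumors, grown from a mouse colon carcinoma line placed under the skin. In the aPD1 + aGM-CSF group, 100 μg of aGM-CSF was given every 3 days from engraftment until tumors reached 75 to 110 mm3. A dose of 200 μg of aPD1 followed, and tumors were taken 48 h later. Isotype mice were given control antibodies at the same doses and times. Another group of 6 tumors, from mice given aPD1 without aGM-CSF, is used below only to show where the aPD1 + aGM-CSF tumors stood. The design has no group given aGM-CSF without aPD1, so the effect of aGM-CSF by itself was not measured, while the aPD1 tumors allow the pair to be set beside aPD1 alone. All hosts are of a single F1 genotype and all tumors come from a single cell line. Each profile is 1 tumor of 1 mouse, so the replicates are separate animals.

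GM-CSF, encoded by Csf2, is a cytokine made by activated T cells, NK cells, stromal cells and some tumor cells. It binds a receptor with a specific alpha chain (Csf2ra) and a shared beta chain (Csf2rb), which signals through JAK2 and STAT5. Its targets are cells of the myeloid line: monocytes, macrophages, dendritic cells, neutrophils and eosinophils. It is known for driving monocytes toward inflammatory dendritic cells and alternatively activated macrophages, and for sustaining alveolar macrophages of the lung. PD-1, the other target, is an inhibitory receptor of activated T cells. Both antibodies act on proteins, so the mRNA of their targets does not show whether blockade was complete.

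Total counts ran from 20297643 to 22517200 in isotype tumors and from 16592338 to 22673085 in aPD1 + aGM-CSF tumors. A group of 5 genes of rRNA origin took 1.72% to 8.55% and 3.07% to 10.9% of them, respectively. The tumors of the series also part into 2 sets along their replicate numbers, which the labels and the paper's text do not name. Isotype replicates 1 and 2 and aPD1 + aGM-CSF replicates 1 to 5 belong to the first set, and the rest of the 14 tumors to the second. Between the sets, edgeR's quasi-likelihood test with treatment in the model (threshold of 0.05 on the adjusted p) found 2309 genes above their first-set level in the second set and 1943 below it. Values within the sets are given for each gene named in the text whose treatment difference differed between the sets at an unadjusted edgeR p under 0.05. They are also given for some others. Of 14 genes listed for MC38 as an epithelial carcinoma, 8 passed the filter on low counts, while Krt20, Cldn7, Cldn3, Elf3 and Vil1 did not. The leukocyte gene Ptprc lay at 150 to 180 CPM (counts scaled to the TMM-normalized library size) in isotype and at 142 to 229 CPM in aPD1 + aGM-CSF tumors.

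The profiles of both groups lay close together. Of 16932 genes tested, edgeR's quasi-likelihood test called 0, or 0%, at an adjusted p under 0.05, and the lowest adjusted p was 0.0786, for Mgl2. DESeq2 called 5 genes. At an unadjusted p under 0.05, edgeR listed 938 genes, of which 568 (3.35% of those tested) were higher and 370 (2.19%) lower in aPD1 + aGM-CSF tumors. This balance depended on the processing, with 354 higher and 443 lower when only library size was used for scaling and 519 higher and 564 lower in a fit of the 14 tumors alone. Without isotype replicate 4 the count was 533, with 325 higher and 208 lower, and without isotype replicate 1 it was 1401, with 882 higher and 519 lower. For comparison, the aPD1 tumors had 1045 genes (6.17%) called higher and 430 (2.54%) called lower than isotype in the same model, at an adjusted p under 0.05. Both comparisons share the isotype tumors. Over all genes tested, whatever their p, 51.8% were higher and 48.2% lower in aPD1 + aGM-CSF tumors. These shares, and the 3.35% and 2.19% at an unadjusted p under 0.05, are the background of the list counts below.

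The size of the differences was small for most genes, and the data were precise enough to say so for the well-expressed ones. The median absolute log2 fold change was 0.0951, against 0.162 for aPD1, and 79.4% of genes lay within 0.25 of no difference on the log2 scale. The 95% interval stayed within a 2-fold difference in either direction for 13379 genes (79%). This share was 99.6% for genes with a mean log2 CPM of 5 and above, 98.5% between 3 and 5, 81.9% between 0 and 3 and 14% below 0. Differences of over 2-fold cannot be told from none at this depth in most weakly expressed genes, among them many markers of rare immune cells.

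A distance over all genes, the root mean square of the differences between group means on the log2 CPM scale, was 0.286 between aPD1 + aGM-CSF and isotype tumors. An exact permutation test over all arrangements of the labels, which counts those at least as far apart, gave p = 0.0964, and the arrangements had a median distance of 0.253. The exact permutation p was 0.0463 with the set effect subtracted and 0.0462 without isotype replicate 1, at distances of 0.275 and 0.327. The aPD1 tumors, which are fewer, were 0.446 from isotype (exact permutation p = 0.00433, adjusted over 3 distances 0.00649), where the arrangements had a median of 0.307, and 0.415 from aPD1 + aGM-CSF tumors (exact permutation p = 0.0004, adjusted 0.0012). The aPD1 + aGM-CSF profile was thus nearer to isotype than the aPD1 profile was, by 0.16. That difference had a two-sided exact permutation p of 0.00719 over all arrangements of the aPD1 and aPD1 + aGM-CSF labels. Over the 500 most variable genes it was 0.341 with an exact permutation p of 0.321.

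Single aPD1 + aGM-CSF tumors lay about as far from the isotype mean as single isotype tumors did. An isotype tumor was compared with a mean of fewer tumors, which by itself adds to its distance. Equal distances from a mean also do not place tumors beside each other. Isotype tumors lay 0.492 to 0.532, with a median of 0.513, from the mean of the other isotype tumors. The 9 aPD1 + aGM-CSF tumors lay 0.467 to 0.633 from the isotype mean, with a median of 0.509, and so spanned the whole isotype range. The aPD1 tumors lay 0.55 to 0.705 away. Of the aPD1 + aGM-CSF tumors, replicates 1 and 5 reached the aPD1 range, and replicate 5 was also the highest in skeletal muscle genes. Between pairs of tumors the median distance was 0.646 within isotype and 0.657 between isotype and aPD1 + aGM-CSF, against 0.767 between isotype and aPD1.

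**Figure D1:**
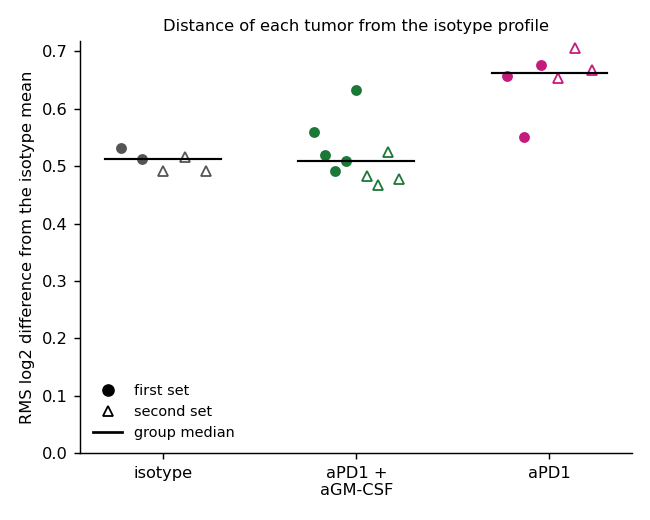
Distance of each tumor from the mean isotype profile, as the root mean square of log2 CPM differences over 16932 genes. Circles mark the first set and triangles the second, lines mark group medians, and an isotype tumor was left out of the mean it was compared with. The aPD1 + aGM-CSF median of 0.509 is at the isotype median of 0.513, and 5 of 6 aPD1 tumors lie above every aPD1 + aGM-CSF tumor.

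**Figure D2:**
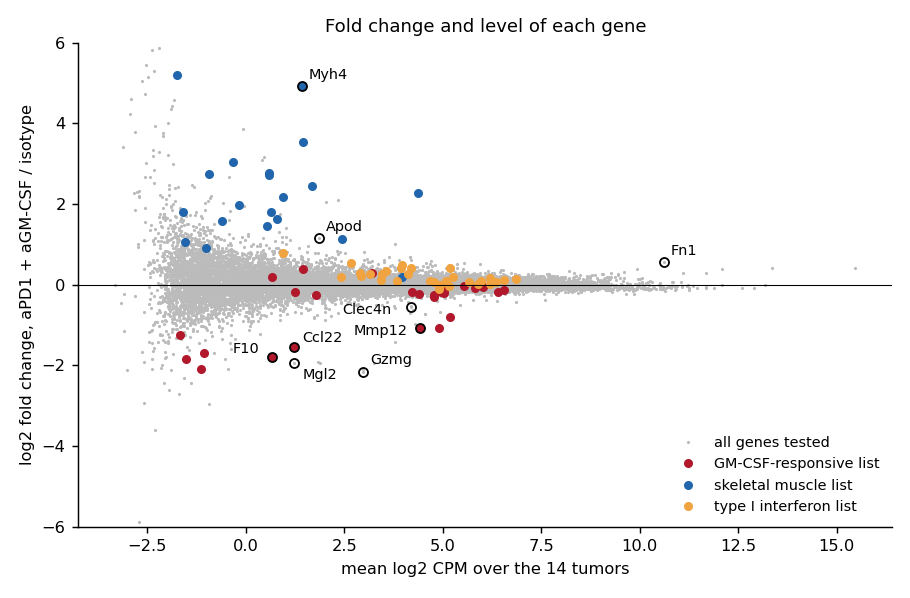
Log2 fold change of aPD1 + aGM-CSF against isotype for each gene, against its mean log2 CPM over the 14 tumors, with 3 genes beyond the plotted range of 6 left out. Genes listed as responsive to GM-CSF (red), which include F10, lie mostly below the line of no difference. Skeletal muscle genes (blue) lie above it and type I interferon-stimulated genes (orange) just above it. Circled genes are named.

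Most genes listed as responsive to GM-CSF had values below isotype, though none passed the adjusted threshold in edgeR over all tumors. The list holds 29 genes of myeloid cells, of which 26 passed the filter. The whole list was written by hand with earlier results of these data known, and F10 was placed in it for that reason. The counts below, with or without F10, are thus descriptions and no independent test. Of the 26, 23 were lower and 3 higher, and 8 were lower at an unadjusted p under 0.05, against 2.19% of all genes. None was higher at that level. Without F10, 22 of 25 were lower, 7 of them at that level, with a median of -0.20. The median log2 fold change of the whole list was -0.22, against 0.006 over all genes, and it was 0.56 in aPD1 tumors. The mean log2 CPM of the list was 3.44, 3.91, 3.41, 3.36 and 3.42 in isotype replicates 1 to 5, and 2.82 to 3.27 with a median of 3.00 in aPD1 + aGM-CSF tumors. No aPD1 + aGM-CSF tumor reached the lowest isotype tumor, and without F10 the highest lay at 3.375 against 3.41 in the lowest isotype tumor. In bulk tumors, fewer cells of a type and less RNA per cell cannot be told apart, here and below.

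F10, the gene of coagulation factor X (chr8:13037308-13056676, GRCm38), lay at 2.64, 3.61, 4.23, 3.97 and 3.08 CPM in isotype replicates 1 to 5. In aPD1 + aGM-CSF tumors it lay at 0.25 to 1.57 CPM, with a median of 1.03. The groups do not overlap, as for 26 genes (0.154%) in this direction over the whole table and 16 (0.0945%) in the other. The log2 fold change was -1.79 (95% interval -2.77 to -0.81), or 3.45-fold lower. The unadjusted p was 0.000472 and the adjusted p was 0.701 with edgeR over all tumors, while in a fit of the 14 tumors alone the adjusted p was 0.0323, the lowest over 25 alternatives that reached up to 1.0. The difference was -1.65 in the first set and -1.85 in the second. The aPD1 tumors spread from 1.69 to 8.57 CPM, all above the highest aPD1 + aGM-CSF tumor. The neighbouring gene F7, coagulation factor VII, also had no overlap and is named after its values were seen: it lay at 0.403 to 0.675 CPM in isotype tumors, below 1 CPM in all of them.

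Mmp12, the macrophage elastase (chr9:7344381-7369499), lay at 29.4, 32.9, 29.5, 49.5 and 41.3 CPM in isotype tumors and at 6.66 to 30.1 CPM, with a median of 18.3, in aPD1 + aGM-CSF tumors. The log2 fold change was -1.06 (edgeR p = 0.00245, adjusted 0.701), and the highest aPD1 + aGM-CSF tumor overlapped the lowest isotype tumors.

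Of the C-type lectin receptors, Clec4n gave groups with no overlap and Clec7a nearly none. Clec4n, the receptor dectin-2 (chr6:123229843-123247021), lay at 27.1, 21.8, 20.4, 23.6 and 22.8 CPM in isotype tumors and at 13.1 to 19 CPM, with a median of 15.8, in aPD1 + aGM-CSF tumors. The log2 fold change of Clec4n was -0.54 (-0.92 to -0.17, edgeR p = 0.00506, adjusted 0.787). Clec7a, the beta-glucan receptor dectin-1 (chr6:129461591-129472779), lay at 61.0, 67.4, 43.4, 42.2 and 50.1 CPM in isotype tumors and at 23.5 to 42.6 CPM in the others. Only the highest aPD1 + aGM-CSF tumor passed the lowest isotype tumor. Its log2 fold change was -0.80 (edgeR p = 0.0254, adjusted 0.889). In a fit of the 14 tumors alone, Clec4n and Clec7a both had an adjusted p of 0.0323 in edgeR, the lowest of 26 alternatives that reached up to 1.0.

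Ccl22, a chemokine of mature dendritic cells that attracts CCR4-bearing T cells (chr8:94745590-94751699), lay at 7.13, 10.8, 2.77, 1.56 and 2.76 CPM in isotype tumors and at 0.901 to 2.76 CPM, with a median of 1.42, in aPD1 + aGM-CSF tumors. Mgl2, a lectin of macrophages and type 2 dendritic cells (chr11:70130329-70137550), lay at 14.7, 9.9, 2.52, 2.41 and 1.96 CPM and at 0.766 to 2.79 CPM, with a median of 1.55. In both genes the isotype tumors of the first set stood above all other isotype and all aPD1 + aGM-CSF tumors, and the tumors of the second set overlapped. The log2 fold change of Mgl2 was -1.94 (-2.72 to -1.18, edgeR p = 4.64e-06, adjusted 0.0786), made up of -2.69 in the first set and -0.82 in the second. That of Ccl22 was -1.55 (edgeR p = 0.00274), with -2.19 and -0.76 in the sets. Mgl2 had an adjusted p of 0.00377 in DESeq2 and of 0.016 in edgeR with the set as a term. Without aPD1 + aGM-CSF replicate 2, or without isotype replicate 3, 4 or 5, its adjusted p in edgeR lay between 0.0103 and 0.0463, and over all 25 alternatives it ran from 0.00377 to 0.999.

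Other genes of this kind were chosen after their values were seen. Pdcd1lg2, which encodes the PD-1 ligand PD-L2 (chr19:29410919-29471161), lay at 1.32, 2.15, 1.06, 1.18 and 1.54 CPM in isotype tumors and at 0.0479 to 0.799 CPM, with a median of 0.427, in aPD1 + aGM-CSF tumors. These groups do not overlap, and the log2 fold change was -1.85 (edgeR p = 0.00471, adjusted 0.787). Tarm1, a receptor of myeloid cells, lay at 1.75 to 2.60 CPM and 0.243 to 1.55 CPM, also with no overlap. Retnla, a marker of alternative macrophage activation, had a log2 fold change of -2.09, Ear2, an eosinophil-associated ribonuclease, -1.84 and Dcstamp, a protein of cell fusion in osteoclasts and giant cells, -1.68. The latter 3 overlap between groups and lie near or below 1 CPM in most tumors, Retnla rests on isotype replicate 2 with 4.84 CPM, and counts of Ear2 may be shared with near-identical Ear genes. In Ear2 the log2 fold change was -2.83 in the first set and 0.16 in the second.

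Ccl17, which encodes the partner chemokine of Ccl22 and is among the best known GM-CSF targets of dendritic cells, did not pass the filter. It had 2 to 36 counts per isotype tumor and 72 in all, against 0 to 4 counts per aPD1 + aGM-CSF tumor and 8 in all. A total of 6 of the 9 aPD1 + aGM-CSF tumors held no count. The aPD1 tumors were also low, at 0 to 6 counts per tumor and 19 in all. Its values were looked at after those of Ccl22.

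The promoters of 3 genes are shown: F10 and Pdcd1lg2, whose groups do not overlap, and Ccl17, a classical GM-CSF target with few counts in aPD1 + aGM-CSF and aPD1 tumors. Each window runs from 250 bases before to 50 bases after the transcription start in RefSeq annotation of GRCm38.p6, on the plus strand, with matches in capitals. The motifs searched on both strands were TTCNNNGAA, the letters bound by STAT5, and GAGGAA, the core bound by PU.1 and other ETS factors (TTCCTC on the other strand). F10 lies at chr8:13037058-13037357, Pdcd1lg2 at chr19:29410669-29410968 and Ccl17 at chr8:94810203-94810502.
F10: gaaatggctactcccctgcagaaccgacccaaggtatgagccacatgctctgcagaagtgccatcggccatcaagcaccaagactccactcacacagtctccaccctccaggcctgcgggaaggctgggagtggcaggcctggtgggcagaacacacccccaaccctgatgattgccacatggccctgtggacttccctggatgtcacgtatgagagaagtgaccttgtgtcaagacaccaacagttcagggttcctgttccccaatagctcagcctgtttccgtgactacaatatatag
Pdcd1lg2: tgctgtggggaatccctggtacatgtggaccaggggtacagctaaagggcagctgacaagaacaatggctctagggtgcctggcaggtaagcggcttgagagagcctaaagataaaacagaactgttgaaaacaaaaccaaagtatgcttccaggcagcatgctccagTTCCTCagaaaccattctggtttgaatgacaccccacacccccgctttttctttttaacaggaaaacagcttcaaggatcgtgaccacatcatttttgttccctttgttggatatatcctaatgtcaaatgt
Ccl17: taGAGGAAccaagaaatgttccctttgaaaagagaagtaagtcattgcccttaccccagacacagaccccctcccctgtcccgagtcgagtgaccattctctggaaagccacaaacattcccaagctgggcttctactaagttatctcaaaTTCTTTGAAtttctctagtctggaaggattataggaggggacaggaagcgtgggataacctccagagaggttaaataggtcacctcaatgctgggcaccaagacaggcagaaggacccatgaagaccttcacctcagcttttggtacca

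The F10 window holds neither motif, the Pdcd1lg2 window holds GAGGAA on the reverse strand, and the Ccl17 window holds both. Of the 29 listed genes, 22 had a window. TTCNNNGAA was found in 4 of them (Ccl17, Chil3, Cish and Il1r2), against 9.55% of 27025 genes with a window of 300 bases. GAGGAA was found in 8, against 31.3% of those genes. A match is a run of letters and no measurement of binding, and 22 windows are few.

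**Figure D3:**
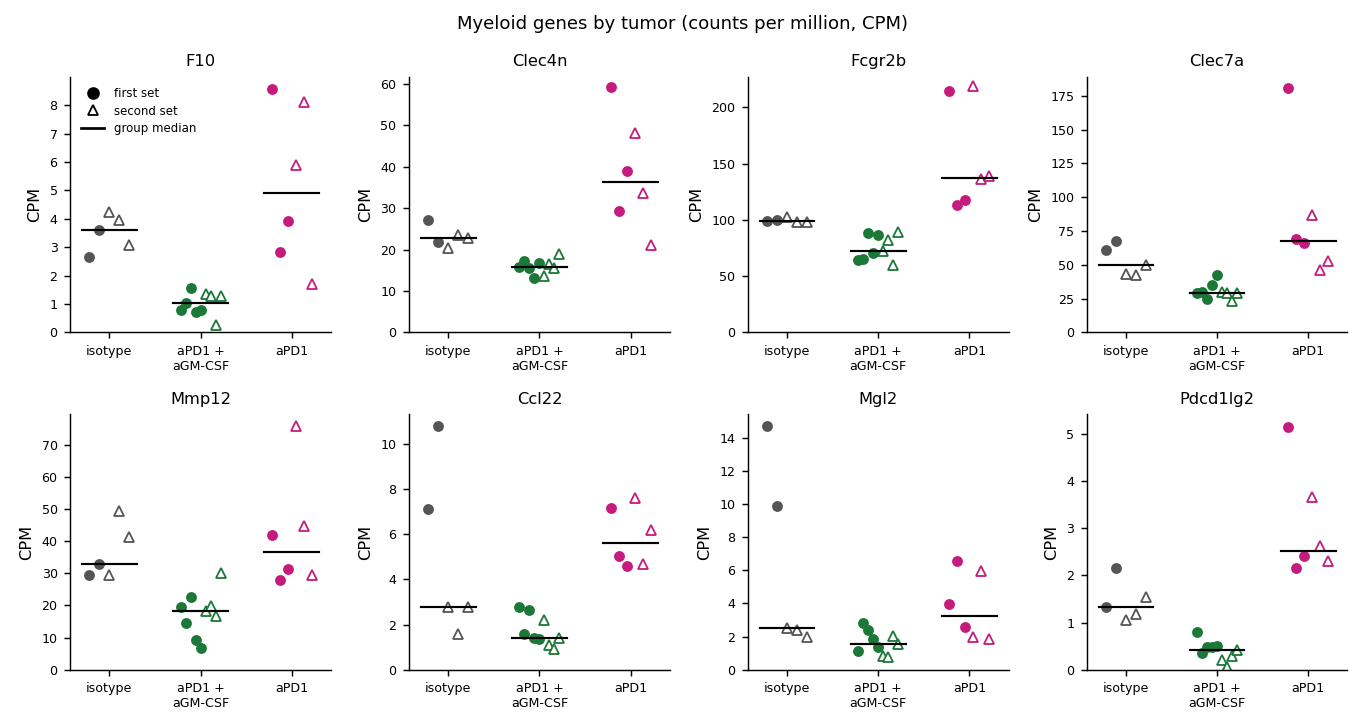
CPM of 8 myeloid genes in each isotype, aPD1 + aGM-CSF and aPD1 tumor, with circles for the first set, triangles for the second and lines at group medians. F10, Clec4n, Fcgr2b and Pdcd1lg2 have no aPD1 + aGM-CSF tumor above an isotype tumor, and in Mgl2 the isotype tumors of the first set stand above all other tumors plotted.

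The GM-CSF receptor and its signaling genes gave levels near those of isotype. Of 23 listed genes, 20 passed the filter, with 10 higher and 10 lower and a median log2 fold change of -0.01. Csf2ra lay at 22.3 to 29.0 CPM in isotype and 20.7 to 29.3 CPM in aPD1 + aGM-CSF tumors (log2 fold change -0.08, 95% interval -0.46 to 0.31). Csf2rb had a log2 fold change of 0.06 (-0.37 to 0.49) and its near-identical copy Csf2rb2 one of 0.10 (-0.47 to 0.66), where reads may be divided between the copies. In aPD1 tumors Csf2rb was 0.98 above isotype on the log2 scale (edgeR adjusted p = 0.00744). Socs2, a feedback inhibitor induced by STAT5, was lower at -0.65 (edgeR p = 0.00904, adjusted 0.862), and the histone demethylase gene Kdm6b was higher at 0.16 (edgeR p = 0.0154). Csf2 itself was too low to test, with 0 to 6 counts per isotype and 0 to 4 per aPD1 + aGM-CSF tumor.

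Neutrophil genes lay mostly below isotype, by a small margin and not in the first set. Of 32 genes, 25 passed the filter, and 7 were higher and 18 lower. Of the lower ones, 3 had an unadjusted p under 0.05, against 2.19% of all genes. The median log2 fold change was -0.13, with 0.07 in the first set alone and -0.19 in the second. In aPD1 tumors it was 1.04, and 6 members were called higher, against 6.17% of all genes. The mean log2 CPM over the list was 1.641, 1.783 and 1.861 in the isotype tumors of the second set and 1.568, 1.342, 1.013 and 1.443 in its aPD1 + aGM-CSF tumors, so all of the latter lay below the former, while the groups overlapped in the first set. Summed over the list, levels were 383 to 602 CPM in isotype and 451 to 618 CPM in aPD1 + aGM-CSF tumors, of which Mmp9 alone gave 177 to 379 CPM and 259 to 411 CPM. In the second set the sums went the other way from the means, at 383, 420 and 384 CPM in isotype and 521, 458, 460 and 451 CPM in aPD1 + aGM-CSF tumors. The list median ran from -0.222 without isotype replicate 1 to -0.074 without isotype replicate 4. Defining markers were at or near 0: Ly6g had no count in any of these tumors, and Retnlg had 2 counts over all isotype and 3 over all aPD1 + aGM-CSF tumors. The part of neutrophil number in these values was not tested.

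S100a9, a calcium-binding protein abundant in neutrophils and monocytes, lay at 0.661, 0.228, 0.706, 0.76 and 1.21 CPM in isotype tumors and at 0 to 0.335 CPM, with a median of 0.121, in aPD1 + aGM-CSF tumors. Its log2 fold change was -2.32 (-3.92 to -0.83, edgeR p = 0.00249, adjusted 0.701). Its partner S100a8 had a log2 fold change of -0.17 (-1.67 to 1.32) at similarly low counts. Cxcl3, a chemokine that attracts neutrophils through CXCR2 and is named after its values were seen, lay at 0.33, 1.28, 2.02, 2.83 and 3.18 CPM and at 0 to 0.575 CPM, with a log2 fold change of -2.95 (edgeR p = 0.00016, adjusted 0.388). Only isotype replicate 1 of Cxcl3 lay within the aPD1 + aGM-CSF range. Csf3r, the G-CSF receptor, lay at 9.07 to 12.0 CPM in isotype and 8.56 to 16.9 CPM in aPD1 + aGM-CSF tumors. Its log2 fold change was 0.14 (-0.41 to 0.70), while in aPD1 tumors it was 1.49 (edgeR adjusted p = 0.00211). Mmp9, gelatinase B, lay at 376 and 379 CPM in the isotype tumors of the first set and at 179, 192 and 177 CPM in those of the second, against 259 to 411 CPM in aPD1 + aGM-CSF tumors. Its log2 fold change was -0.01 in the first set and 0.60 in the second.

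Dendritic cell genes are given by class. Type 1 conventional dendritic cells, which cross-present antigen to CD8 T cells, had 16 listed genes, with 9 higher and 7 lower and a median of 0.02. Clec9a lay at 12.8 to 16.3 CPM in isotype and 13.5 to 17.4 CPM in aPD1 + aGM-CSF tumors, a log2 fold change of 0.04 with an interval of -0.13 to 0.20. Xcr1, the receptor for XCL1, was less precise at 0.23 (-0.71 to 1.17). A total of 2 of the 16 were lower at an unadjusted p under 0.05, against 2.19% of all genes. They were Naaa, a lysosomal amidase, at -0.38 (edgeR p = 0.00435), and the surface glycoprotein gene Cd24a at -0.73 (edgeR p = 0.0372). Naaa lay at 64.3, 82.2, 61.3, 56.5 and 62.2 CPM in isotype tumors and at 37.3 to 57.1 CPM in aPD1 + aGM-CSF tumors, and the groups overlap only at the edge.

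Type 2 conventional dendritic cells had 14 of 16 genes measured, with 2 higher and 12 lower and a median of -0.30, against 0.45 in aPD1 tumors. Only Mgl2, described above, was lower at an unadjusted p under 0.05. Flt3, the receptor for the growth factor of dendritic cells, had a log2 fold change of -0.35 (-1.15 to 0.45). The mature dendritic cell list had 17 of 18 genes measured, with 3 higher and 14 lower and a median of -0.17. Without isotype replicate 2 the medians were -0.145 for the type 2 and -0.032 for the mature list. Ccl22 and Socs2 were its members at an unadjusted p under 0.05. Ccr7, the receptor that guides dendritic cells to lymph nodes, lay at 2.74, 2.78, 1.71, 1.35 and 2.1 CPM in isotype tumors and at 0.623 to 2.37 CPM in aPD1 + aGM-CSF tumors (log2 fold change -0.42, -1.19 to 0.34). Plasmacytoid dendritic cells, the main producers of type I interferon, had 14 of 16 genes measured, with 8 higher and 6 lower and a median of 0.12 (-0.045 in the second set and 0.059 without isotype replicate 4). Their marker Siglech was at -0.61 (-1.49 to 0.27), and the transcription factor gene Runx2 at 0.24 (edgeR p = 0.0029), the latter 0.40 in the first set and 0.09 in the second.

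Macrophage and monocyte genes were near isotype in number and size. Of 24 macrophage genes, 10 were higher and 14 lower, with a median of -0.04 and none at an unadjusted p under 0.05. In aPD1 tumors 18 of them were called higher, against 6.17% of all genes, and the list median was 0.66. Adgre1, the F4/80 antigen, lay at 109 to 131 CPM in isotype and 102 to 146 CPM in aPD1 + aGM-CSF tumors (log2 fold change 0.06, -0.24 to 0.36). The exception is Lyz2, lysozyme, at 971 to 1170 CPM in isotype and 759 to 942 CPM in aPD1 + aGM-CSF tumors, with no overlap at a log2 fold change of -0.24 (edgeR p = 0.059). Reads of Lyz2 may be shared with its close relative Lyz1.

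The Fc receptor Fcgr2b, the inhibitory IgG receptor, showed the same pattern. It lay at 98.6, 99.5, 103, 97.8 and 98.2 CPM in isotype tumors and at 59.5 to 89.5 CPM, with a median of 72.6, in aPD1 + aGM-CSF tumors. Its groups do not overlap, but the log2 fold change of -0.40 had an edgeR p of 0.0674. Monocyte genes (20) were higher in 14 and lower in 6, with a median of 0.04 (0.131 without isotype replicate 2), and Fn1 and Vcan, both also matrix genes, were higher at an unadjusted p under 0.05. Genes of Spp1-expressing and lipid-handling macrophages (20) were higher in 3 and lower in 17, with a median of -0.13, which ran from -0.233 without isotype replicate 1 to -0.075 without isotype replicate 5. Mmp12 and Gpnmb, a glycoprotein of lipid-laden macrophages (log2 fold change -0.37, edgeR p = 0.0181), were among its members at an unadjusted p under 0.05. Spp1 itself was at -0.11 (-0.59 to 0.37).

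Among lymphocyte genes, granzymes of the c to g cluster lay lower at an unadjusted p under 0.05. These proteases are induced late in activated cytotoxic T and NK cells, are encoded by neighbouring and very similar genes on chromosome 14, and may share reads. Of 23 cytotoxic lymphocyte genes, 5 were higher and 18 lower, with a median of -0.33, which was -0.687 in the second set. Lower at an unadjusted p under 0.05 were 5, against 2.19% of all genes. They were Gzmg (-2.15, edgeR p = 0.000255, adjusted 0.539), Gzmd (-2.08), Gzmf (-1.95), Gzme (-1.90, named after its values were seen) and Gzmc (-1.42).

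Gzmg lay at 15.1, 6.34, 45.3, 49.8 and 19.2 CPM in isotype replicates 1 to 5 and at 1.02 to 13.8 CPM, with a median of 5.05, in aPD1 + aGM-CSF tumors. Gzmc lay at 23.2, 14.9, 47.0, 45.0 and 19 CPM and at 1.85 to 21 CPM, with a median of 11.4. In both genes isotype replicates 3 and 4 were the highest, isotype replicate 2 was the lowest, and the groups overlapped. The log2 fold changes within the sets were -1.54 and -2.07 for Gzmg and -1.14 and -1.37 for Gzmc.

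Granzyme A, encoded by Gzma on chromosome 13, lay at 3.02, 4.06, 6.8, 5.95 and 4.9 CPM in isotype tumors and at 1.7 to 4.26 CPM, with a median of 2.95, in aPD1 + aGM-CSF tumors. Its log2 fold change was -0.74 (-1.62 to 0.13, edgeR p = 0.0889). The groups overlapped over all tumors but not within the second set, where aPD1 + aGM-CSF tumors lay at 2.68 to 3.95 CPM. Cd8a, of the CD8 co-receptor, lay at 16.5, 18.1, 9.17, 12.9 and 17.7 CPM in isotype tumors and at 8.51 to 28.3 CPM, with a median of 14, in aPD1 + aGM-CSF tumors. The log2 fold change of Cd8a was 0.06 with an interval of -1.07 to 1.19, which leaves room for a 2-fold difference either way. Ifng, interferon gamma, was at 0.02 (-1.17 to 1.21). Of 22 T cell genes, 4 were higher and 18 lower, with a median of -0.24 (-0.121 without isotype replicate 2) and none at an unadjusted p under 0.05, while the median was 0.97 in aPD1 tumors. NK cell genes (15) had a median of -0.11, or -0.066 without isotype replicate 3. Regulatory T cell genes (12 of 14 measured) had one of -0.29, or -0.137 without isotype replicate 2. B cell and plasma cell genes (13 of 20 measured) had a median of -0.16, which was 0.285 without isotype replicate 2. Pdcd1, the PD-1 gene itself, was at -0.09 (-0.86 to 0.69).

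Type I interferon genes lay slightly above isotype, and interferon gamma genes had a median near 0. Of 30 type I interferon-stimulated genes, 28 were higher and 2 lower, with a median of 0.15. In the first set alone the median was -0.001, and it ran from 0.09 without isotype replicate 5 to 0.241 without isotype replicate 1. In aPD1 tumors it was 1.15, and 28 were called higher, against 6.17% of all genes. At an unadjusted p under 0.05, 2 were higher in aPD1 + aGM-CSF tumors, against 3.35% of all genes. They were Oas2, an antiviral sensor of double-stranded RNA, at 0.49 (edgeR p = 0.0273), and Ifi27l2a at 0.54 (edgeR p = 0.043). Oas2 lay at 14.5, 17, 10.4, 11.2 and 11.3 CPM in isotype tumors and at 11.7 to 26 CPM, with a median of 18.4, in aPD1 + aGM-CSF tumors. The aPD1 + aGM-CSF tumors of the second set were above the 3 isotype tumors of that set. Those 3 also lay below the isotype tumors of the first set. Of 31 interferon gamma response genes, 10 were higher and 21 lower, with a median of -0.06 (0.032 without isotype replicate 2), against 0.84 in aPD1 tumors. Cxcl9, which attracts CXCR3-bearing T cells, was at -0.23 (-1.19 to 0.72), and Cd274, PD-L1, at -0.09 (-0.69 to 0.51).

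Antigen presentation and chemokine genes were mostly below isotype by small amounts. MHC class I and immunoproteasome genes (23) were lower in 21 and higher in 2, with a median of -0.12, or -0.078 without isotype replicate 2. The proteasome genes Psme2 (-0.16, edgeR p = 0.0117) and Psmb10 (-0.18, edgeR p = 0.0366) and the nonclassical H2-M3 (-0.18, edgeR p = 0.0418) had an unadjusted p under 0.05. MHC class II genes (13 of 14 measured) had 11 lower and a median of -0.17, which was 0.004 without isotype replicate 2. Chemokines (26 of 29 measured) had 23 lower and 3 higher and a median of -0.18, or -0.042 without isotype replicate 2, with Cxcl3 and Ccl22 at an unadjusted p under 0.05. Among inflammatory cytokine genes (24), 11 higher and 13 lower, Il27 was higher at 1.36 (edgeR p = 0.00704) and is named after its values were seen. Il27 lay at 0.0472 to 0.295 CPM in isotype and at 0.247 to 1.1 CPM in aPD1 + aGM-CSF tumors, with the groups overlapping. In aPD1 tumors it was 2.81 above isotype (edgeR adjusted p = 0.000828). Il34, a ligand of the CSF1 receptor, was lower at -0.23 (edgeR p = 0.00537), and at -0.31 in aPD1 tumors (edgeR adjusted p = 0.0216).

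**Figure D4:**
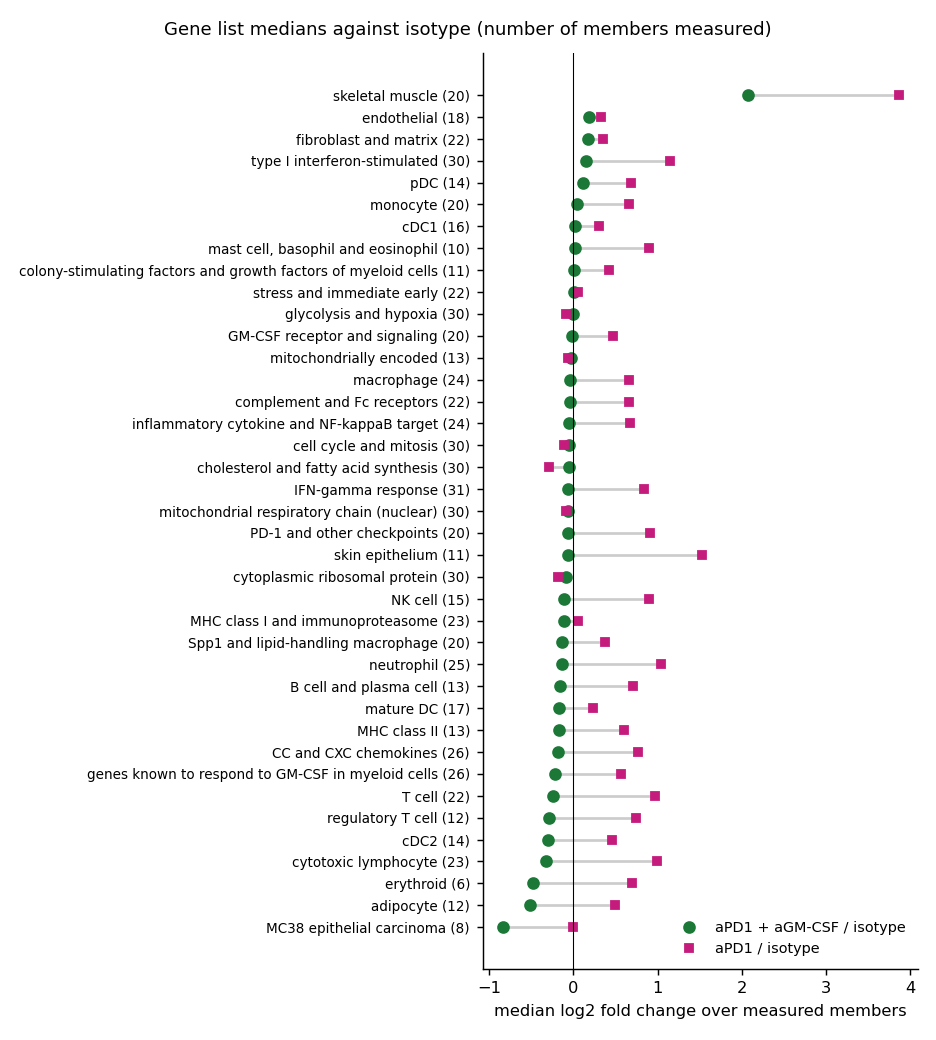
Median log2 fold change against isotype over the measured members of each gene list, with circles for aPD1 + aGM-CSF tumors, squares for aPD1 tumors and the number of members in parentheses. Circles lie within 0.5 of 0 for all lists except skeletal muscle (2.08), adipocyte (-0.52) and MC38 epithelial carcinoma (-0.84). Without isotype replicate 5 the adipocyte and MC38 medians are -0.02 and -0.542. Squares of most immune lists lie further to the right.

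Most stromal genes had values above isotype, and none passed the adjusted threshold in edgeR over all tumors. Of 22 fibroblast and matrix genes, 18 were higher and 4 lower, with a median of 0.17, and 5 were higher at an unadjusted p under 0.05, against 3.35% of all genes. Fn1, fibronectin (chr1:71585520-71653200), lay at 1470, 1150, 1530, 892 and 1080 CPM in isotype tumors and at 1470 to 2070 CPM, with a median of 1910, in aPD1 + aGM-CSF tumors. The lowest aPD1 + aGM-CSF tumor, replicate 8, lay below isotype replicate 3, and no other pair of the groups overlapped. Fn1 had a log2 fold change of 0.57 (0.34 to 0.80, edgeR p = 1.56e-05, adjusted 0.132), with 0.56 and 0.51 in the sets and 0.11 in aPD1 tumors. DESeq2 gave an adjusted p of 0.00377, and edgeR without isotype replicate 3 one of 0.0295, within a range of 0.00377 to 0.999 over 26 alternatives.

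Apod, an apolipoprotein of fibroblasts and nerve sheath (chr16:31296192-31314808), lay at 2.36, 3.19, 1.97, 2.07 and 1.4 CPM in isotype tumors and at 2.80 to 6.62 CPM, with a median of 4.27, in aPD1 + aGM-CSF tumors. The difference on the log2 scale was 1.15 (0.66 to 1.64, edgeR p = 3.53e-05, adjusted 0.185). DESeq2 gave an adjusted p of 0.0106, the lowest of 26 alternatives that reached up to 0.999. In aPD1 tumors it was 1.45 (edgeR adjusted p = 0.000877), so Apod lay above isotype in both groups. The matrix genes Dcn (0.20) and Fap (0.51) were higher at an unadjusted p under 0.05, Fap being at 1.05 in the first set and -0.03 in the second. Dcn was at -0.33 in aPD1 tumors (edgeR adjusted p = 0.023). The phospholipase gene Plcb1 was at 0.46 (edgeR p = 4.37e-05, DESeq2 adjusted p = 0.0411) and the acid phosphatase gene Acpp at 1.02 (edgeR p = 0.000124), the latter 1.57 in the first set and 0.54 in the second.

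Endothelial genes (18) were higher in 16 and lower in 2, with a median of 0.19. Cdh5, VE-cadherin of endothelial junctions, lay at 57.5, 53.0, 54.0, 40.9 and 60.0 CPM in isotype tumors and at 55.2 to 72.2 CPM in aPD1 + aGM-CSF tumors (log2 fold change 0.24, edgeR p = 0.00658, adjusted 0.825). Sox17, a transcription factor of arterial endothelium named after its values were seen, was at 0.63 (edgeR p = 0.0348).

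Skeletal muscle genes lay above isotype along with these stromal values and varied strongly from tumor to tumor. All 20 listed genes were higher, with a median of 2.08 (3.27 without isotype replicate 1). Of them, 12 had an unadjusted p under 0.05, against 3.35% of all genes that were higher at that level. In aPD1 tumors the median was 3.87, and 15 were called higher, against 6.17% of all genes. Their summed level was 109, 60.3, 28.2, 19.8 and 24.4 CPM in isotype replicates 1 to 5 and 34.9 to 600 CPM, with a median of 78.3, in aPD1 + aGM-CSF tumors. Myh4, the fast myosin heavy chain, lay at 3.49 and 1.19 CPM in isotype replicates 1 and 2 and at 0 in the others, against 0 to 80.2 CPM in aPD1 + aGM-CSF tumors. The mean log2 CPM of the list exceeded every isotype tumor in aPD1 + aGM-CSF replicates 1, 3, 5 and 8, at 2.70 to 3.58 against at most 1.25.

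Without those 4 tumors, an alternative added after the data were seen, edgeR again called 0 genes, with 555 at an unadjusted p under 0.05, and the muscle median was 0.22. Stromal values were then 0.09 for the median of the fibroblast list, 0.16 for the endothelial list, 0.56 for Fn1, 1.16 for Apod and 0.26 for Cdh5. Those of the myeloid genes were -0.15 for the median of the GM-CSF list, -1.63 for F10 (edgeR p = 0.00616), -0.998 for Mmp12 and -0.55 for Clec4n. The differences in Fn1, Apod and F10 were about as large as over all tumors, while the medians of the fibroblast list (0.17 over all tumors) and of the GM-CSF list (-0.22) were smaller.

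**Figure D5:**
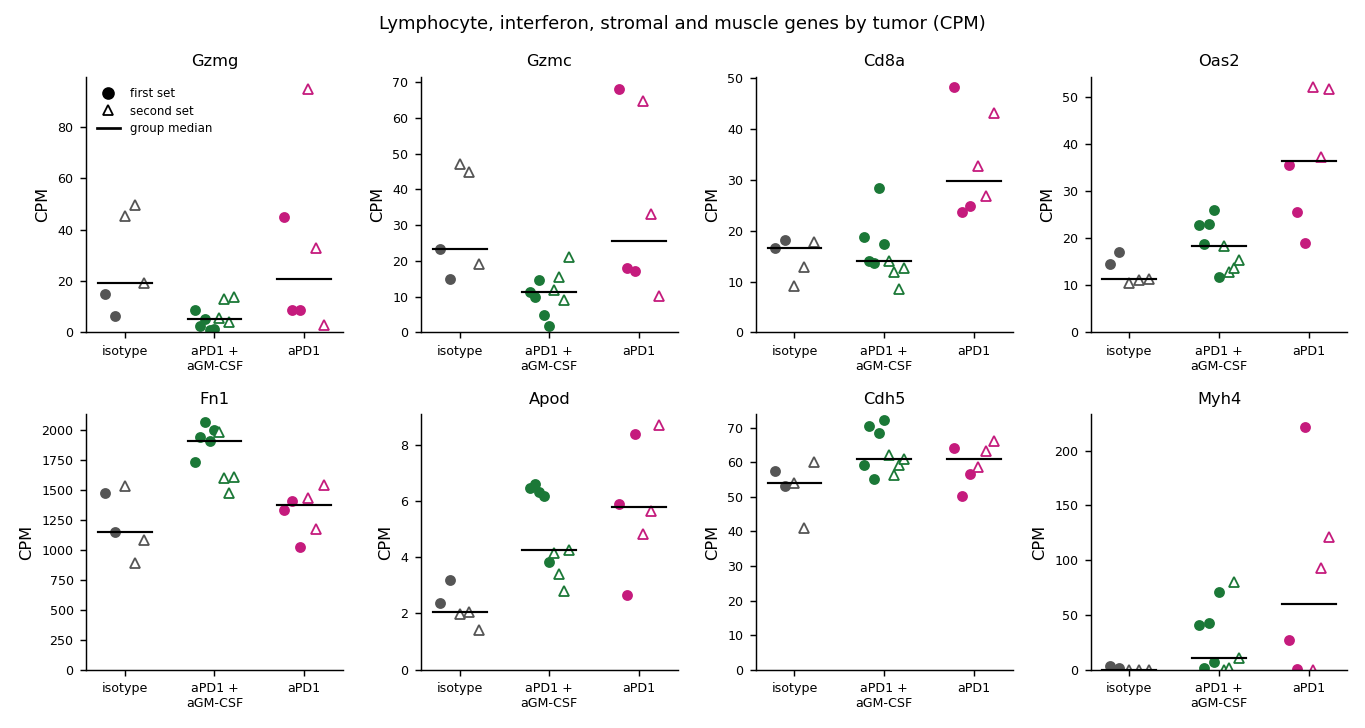
CPM of granzyme, T cell, interferon, stromal and muscle genes in each isotype, aPD1 + aGM-CSF and aPD1 tumor, with circles for the first set, triangles for the second and lines at group medians. Gzmg and Gzmc have their lowest group median in aPD1 + aGM-CSF tumors, Fn1 is highest in that group, Apod is above isotype in both treated groups, and Myh4 is far above 0 in only some tumors.

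Genes of general cell function differed little. Cell cycle genes (30) were lower in 24 and higher in 6, with a median of -0.05. Pcna, the sliding clamp of DNA replication, lay at 202 to 237 CPM in isotype and 171 to 203 CPM in aPD1 + aGM-CSF tumors (log2 fold change -0.17, edgeR p = 0.0152). Cytoplasmic ribosomal protein genes (30) were lower in 29, with a median of -0.08 and Rpl5 the furthest from 0 among those at an unadjusted p under 0.05, at -0.25 (edgeR p = 0.00289). Nuclear genes of the mitochondrial respiratory chain (30) were also lower in 29, with a median of -0.06, and glycolysis and hypoxia genes (30) had a median of -0.004. Cholesterol and fatty acid synthesis genes (30) had a median of -0.06, which was -0.25 in the first set alone and 0.037 without isotype replicate 1. In aPD1 tumors the median was -0.29, and 12 were called lower, against 2.54% of all genes.

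Of the epithelial carcinoma genes, 8 were measured, with 6 lower and a median of -0.84, which was 0.025 over genes with at least 10 counts in every tumor. Cdh1, E-cadherin, lay at 5.95, 6.16, 7.51, 6.25 and 5.84 CPM in isotype tumors and at 1.73 to 5.53 CPM, with a median of 3.64, in aPD1 + aGM-CSF tumors. The groups do not overlap (log2 fold change -0.78, edgeR p = 0.00899, adjusted 0.862), and the sets gave -0.94 and -0.58. In aPD1 tumors Cdh1 was at -0.06 and spread from 2.71 to 8.69 CPM. Shisal2b, used in the paper to mark MC38 cells, lay at 18.7, 20.1, 24.8, 22.9 and 18.1 CPM in isotype tumors and at 15.2 to 31.3 CPM, with a median of 19.7, in aPD1 + aGM-CSF tumors. The log2 fold change of Shisal2b was 0.02 (-0.35 to 0.40), so the list's lower median was not shared by this gene.

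Whether the difference between aPD1 + aGM-CSF and isotype tumors depended on the set was tested with an interaction term in edgeR. Of 16932 genes, 0 were called at an adjusted p under 0.05, 896 (5.29%) had an unadjusted p under 0.05, and the lowest adjusted p was 0.885. The set differences given for single genes, such as Mgl2, Ccl22, Ear2 and Acpp, are therefore descriptions.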

How the data were processed

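Poly(A) RNA of 42 MC38 tumors was sequenced by the authors, who aligned reads with Bowtie 1.2.3, per the submitters' processing notes, to the transcriptomes of the 8 founder strains of the Collaborative Cross and estimated counts with EMASE and gbrs. The notes name the builds GRCm38 and mm10. The deposited values are expected counts per gene, summed over founder haplotypes and not normalized; 15.2% are not whole, since the method divides shared reads, so counts of near-identical genes are uncertain. They cover 26811 genes. Here counts were rounded and filtered with filterByExpr (minimum count 10, minimum total 15), which left 16932 genes.

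Counts were normalized by TMM and fitted with the quasi-likelihood test of edgeR 4.0.16 in R 4.3.3, with all 42 tumors and 5 groups in a single model. P-values were adjusted over all genes after Benjamini and Hochberg and called under 0.05. DESeq2 1.42.0 was an alternative; the paper used a later version of it. Distances used log2 CPM with a prior count of 2 and exact permutation tests (Python 3.11.15, numpy 2.4.6, pandas 2.3.3). The edgeR script was tested on simulated data. No pair of tumors agreed within sampling noise (lowest chi-square per degree of freedom 5.64). Counts and floors cover counting error only.

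The groups come from the sample titles, and no tumor was left out. The tumors compared, the gene lists and the split into sets were chosen with earlier results of these data known. The text names a selection of the genes picked by rule. The rules took the 10 with the smallest unadjusted p in each direction among genes averaging log2 CPM 1 or more. They also took every gene called in the main model or an alternative with both groups whole. Up to 4 members of each list by unadjusted p, averaging log2 CPM 0 or more, and fixed genes such as Csf2, Csf2ra, Csf2rb, Xcr1 and Cd8a were added. Cxcl3, Pdcd1lg2, Tarm1, Retnla, Ear2, Dcstamp, Gzme, Il27, Sox17, F7 and Ccl17 and the promoters shown were chosen after their values were seen. Alternatives were other normalizations, filters, fits of fewer tumors, the replicate number as a block, the set as a term, leaving out rRNA genes and leaving out each tumor; leaving out tumors high in muscle genes, the muscle genes from the distances, or F10 from the GM-CSF list, was added after the data were seen.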

Additional observations from a re-analysis of the deposited data

Results flagged for a closer look

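Of 170 groups of tumor values tested for a single sample far from the others of its group, 11 held one, where chance gives about 1 in 20. In the gene values, aPD1 + aGM-CSF replicate 8 was low in F10 at -1.509 and in Cd274 at 5.019 (log2 CPM), replicate 5 was low in Naaa at 5.225, and isotype replicate 4 was low in Csf2rb at 4.896 and high in Pcna at 7.886. Cdh1 was low in aPD1 + aGM-CSF replicate 5 at 0.869 and high in isotype replicate 3 at 2.928, and Il27 was low in isotype replicate 1 at -2.754 (log2 CPM). In the means over gene lists, isotype replicate 1 was low in Spp1 and lipid-handling macrophage genes at 5.467 and in NK cell genes at 1.101, and isotype replicate 2 was high in genes known to respond to GM-CSF at 3.913 (mean log2 CPM). The test of the treatment difference between the sets called 0 genes in edgeR, with 896 at an unadjusted p under 0.05, and no file or column lay outside the main measurement.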

How the results depend on the processing

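The count of genes called, 0 in edgeR over all tumors, was 2 with a total of at least 5 counts as the only filter, 3 with the 14 tumors alone, 5 in DESeq2, 1 with the set as a term, 5 in the first set alone and 0 to 2 with each tumor left out. The cause was not tested. The genes called by DESeq2 were Mgl2, Fn1, Apod, Plcb1 and Krt1, the last with counts in aPD1 + aGM-CSF replicate 2 alone among the 14 tumors, and those with the 14 tumors were F10, Clec4n and Clec7a. The count at an unadjusted p under 0.05, 938 in all, was 1910 (1056 higher, 854 lower) with a total of at least 5 counts, 619 (372 higher) in the second set and 555 (320 higher, 235 lower) without the tumors high in muscle genes. Higher genes were the fewer with library size only (354 higher, 443 lower), with the 14 tumors alone (519 higher, 564 lower) and with the replicate block. There were 374 higher and 331 lower genes with at least 10 counts in every tumor, and 749 higher and 569 lower in the first set. Leaving out each tumor gave 533 to 1401 genes, with 325 to 882 higher and 208 to 519 lower, and without isotype replicate 4 the count was the lowest, at 533.

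The replicate numbers do not pair the tumors: same-numbered isotype and aPD1 + aGM-CSF tumors correlated at 0.17, 0.035, -0.051, -0.02 and 0.012 in their deviations from the group means. With the replicate block, 4 genes were called and 2456 (1193 higher, 1263 lower) had an unadjusted p under 0.05. List medians under the block were 0.057 for macrophage, 0.219 for T cell, 0.129 for cytotoxic lymphocyte, 0.057 for regulatory T cell, 0.264 for MHC class II, -1.381 for adipocyte and -1.846 for MC38 epithelial carcinoma genes.

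Other list medians that moved by more than the spread between tumors were 0.329 for B cell genes with at least 10 counts in every tumor, with a range of -0.218 to 0.285 when each tumor was left out. In the first set they were 0.382 for plasmacytoid dendritic cell, 1.058 for skin, 1.204 for erythroid and -0.25 for cholesterol genes. In the second set they were -0.687 for cytotoxic lymphocyte and 5.658 for muscle genes, and without the tumors high in muscle genes the muscle median was 0.221. In the second set alone the direction turned for Fap (-0.031) and Ear2 (0.153). The distance between aPD1 + aGM-CSF and isotype was 0.275 (exact permutation p = 0.0463) with the set effect subtracted, 0.327 (p = 0.0462, exact permutation) without isotype replicate 1, and 0.276 to 0.327 with each tumor left out. The difference of both distances was 0.341 over the 500 most variable genes (exact permutation p = 0.321) and 0.0622 with the replicate block (p = 0.0625, the smallest that this exact permutation allows). Genes below a mean log2 CPM of 0 were measured too weakly to bound a difference at 2-fold in most cases.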
